A study of Canis lupus familiaris with 6 samples.

Results

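SNRPN, the genes that lie around it and a small set of other imprinted genes were followed in MDCK II, a line of epithelial cells from dog kidney, with and without E-cadherin, the adhesion protein of epithelial cell contacts. The genes were chosen by symbol from the deposited table: SNRPN, UBE3A, HERC2, NIPA1, NIPA2 and NDN for the SNRPN region, and PEG3, PEG10, MEST and IGF2R for other imprinted places. Of these 10 symbols, 7 are described here, out of 12851 genes in the table, and HERC2, NDN and PEG3 are not analysed here. The 6 poly-A RNA libraries were 3 from knockout cells (KO, MDCK Type II Ecadherin KO, labelled as loss of E-cadherin function) and 3 from wild-type control cells (WT, MDCK Type II) of the same line. Both groups were grown in DMEM with serum. The labels give neither the number of KO clones nor whether libraries were made from different cultures, so p-values measure only the spread between libraries, which may be technical. They also differ on density, since the series text speaks of confluence while cells for harvest were grown to 70 to 80%.

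An imprinted gene is read mainly from the chromosome copy inherited from the mother or mainly from that inherited from the father, and DNA methylation laid down in the germ cells marks which copy is used. SNRPN encodes SmN, a protein of the spliceosome's small nuclear ribonucleoproteins (snRNPs), and in human and mouse it is read from the paternal copy. Its region is the human Prader-Willi and Angelman region, where UBE3A, the ubiquitin ligase lost in Angelman syndrome, is read from the maternal copy in neurons and from both copies in most other cells. NIPA1 and NIPA2, magnesium transporters at the edge of that region, are not imprinted. Which genes are imprinted differs between species and tissues, and these libraries do not tell the parental copies apart.

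All levels are normalized counts, the authors' scaled read numbers per gene, and error is SD with n = 3 libraries per group. Log2 fold changes are KO over WT, fitted with limma on log2(value + 1), and a gene passed where its Benjamini-Hochberg adjusted p over all 12349 tested genes was under 0.05. The library totals were 18281549 to 19386796 normalized counts, and Pearson correlations of log2 values across genes were 0.987 to 0.991 within groups and 0.934 to 0.940 between groups. The targeted gene, CDH1 (ENSCAFG00845010704), which encodes E-cadherin, had 1115, 1120 and 1237 normalized counts in KO libraries, against 38542, 39643 and 39370 in WT libraries. The epithelial marker EPCAM had 8120 ± 417 in KO and 8518 ± 398 in WT, and the kidney lineage gene PAX2 had 1005 ± 55.2 in KO and 972 ± 105 in WT. Of 8 tested kidney epithelial markers, CDH16 and PAX8 rose, CLDN2, CLDN4 and CDH6 fell, and EPCAM, KRT18 and PAX2 did not pass. Of the markers of other cell types, 1 of 7 for fibroblasts was found by symbol, 0 of 6 for endothelium, 1 of 6 for immune cells and 1 of 8 for neurons. The fibroblast receptor gene PDGFRA was at 28.7 to 40.4 in KO and 17.7 to 20.6 in WT, and the neuronal microtubule gene MAP2 at 235 to 285 in KO and 543 to 565 in WT. The B-cell gene CD79A was listed at 14000 ± 559 in KO and 13434 ± 906 in WT, above EPCAM. Whether the reads of that row come from CD79A was not tested. The part of these marker genes in the results below was not tested.

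The members were chosen with results of this KO against WT comparison known, so their values are a description and no p-value is given for them. Of the 7, PEG10 lay under the filter of a mean of 10 and 6 were tested. Of the 6, MEST was higher in KO, SNRPN and UBE3A were lower, and NIPA1, NIPA2 and IGF2R did not pass. Across all tested genes 48.1% passed, 23.6% as higher and 24.5% as lower. The KO and WT libraries did not overlap for 2 of the 6, SNRPN and MEST, and for 56.4% of all tested genes.

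**Figure D1:**
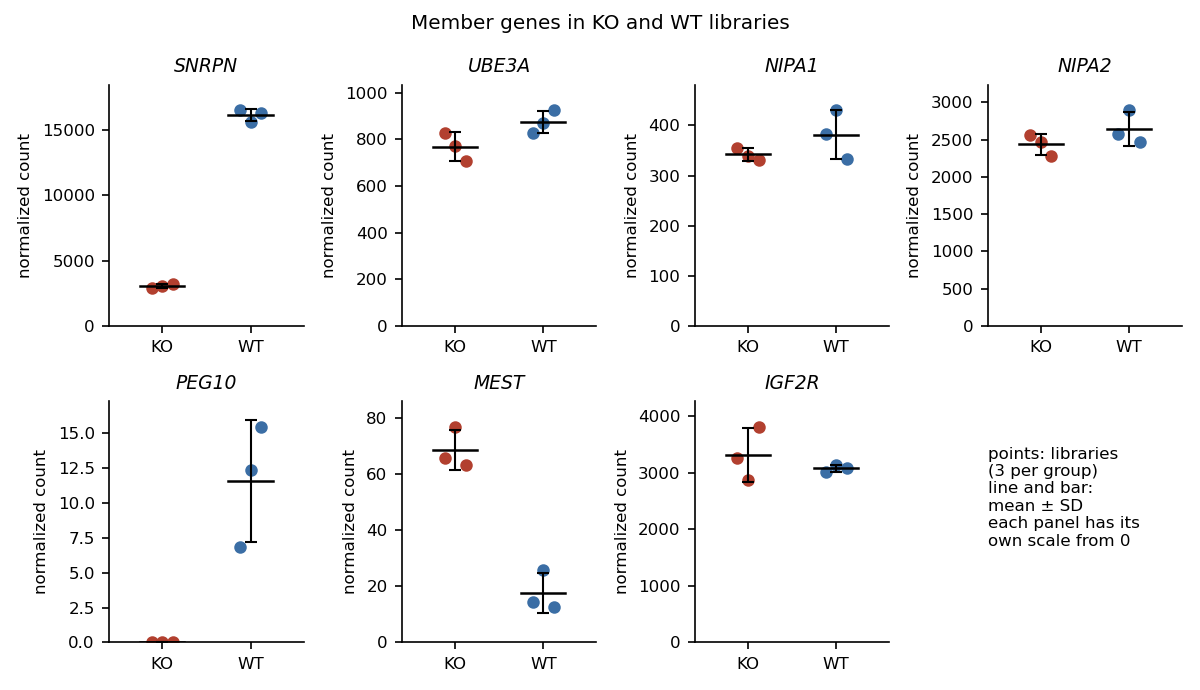
Normalized counts of the 7 members in each library (points), with the mean and SD of the 3 KO and 3 WT libraries; every panel has its own scale from 0. SNRPN sits between 2911 and 3175 in KO and between 15632 and 16516 in WT, and PEG10 is listed at 0 in every KO library.

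SNRPN (ENSCAFG00845019483) had 2911, 3097 and 3175 normalized counts in the KO libraries, against 16516, 15632 and 16352 in the WT libraries. All KO libraries lay far below all WT libraries, and the libraries of each group lay close together, with a coefficient of variation of 4.42% in KO and 2.91% in WT. The KO mean of 3061 ± 135 was 18.9% of the WT mean of 16167 ± 470, a log2 fold change of -2.40 (SE 0.045). The authors' deposited table gives -2.40 (SE 0.049), and by the size of its score, the fold change over its error, SNRPN ranks 3 among the genes of the table. SNRPN was chosen with results of this comparison known, so the rank only describes it. The deposited means of other genes can exceed all 6 libraries, so the authors' error and score may rest on further libraries, which are not analysed here. In the limma fit 149 tested genes had a lower log2 fold change than SNRPN, of which 10 had a WT mean of at least 1000. By its own library values, the SNRPN transcript was reduced but still counted in every KO library. In bulk RNA, fewer cells with the transcript and less transcript per cell cannot be told apart.

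The genes whose pattern was nearest to that of SNRPN over the 6 libraries were MYL4, CLIC2, TRIM16, DYSF and PLA2G4A. Likeness was the Euclidean distance of log2(value + 1), centred on the WT mean, and these were the nearest 5 of 10002 ranked symbols. MYL4, a myosin light chain gene, was at a distance of 0.147 and had 238 ± 8.07 in KO and 1334 ± 57.3 in WT (log2 fold change -2.48). CLIC2, a chloride intracellular channel gene, lay at 0.234, with 130 ± 9.62 in KO and 721 ± 25.1 in WT. TRIM16, DYSF and PLA2G4A lay at 0.347, 0.348 and 0.353, against a median distance of 4.15 for all ranked genes. With groups of 3, such a distance mostly reads the size of the KO to WT difference.

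UBE3A (ENSCAFG00845018724) had 829, 772 and 707 normalized counts in the KO libraries, against 829, 870 and 925 in the WT libraries. The highest KO library reached the lowest WT library, so the groups met at their edges. The means were 769 ± 61.0 in KO and 874 ± 48.3 in WT, a log2 fold change of -0.19 (SE 0.072). UBE3A passed in 8 of the 15 settings in which it was fitted, and the call was lost without KO replicate 2 or 3 and without WT replicate 2 or 3, where the log2 fold change was -0.19, -0.13, -0.19 and -0.15. It was also lost with upper-quartile rescaling, in limma without trend and robust options and with a replicate block.

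NIPA1 (ENSCAFG00845016196) had 356, 339 and 331 in KO and 383, 430 and 332 in WT, a log2 fold change of -0.15 (SE 0.096). NIPA2 (ENSCAFG00845016134) had 2563, 2466 and 2287 in KO and 2572, 2894 and 2464 in WT, a log2 fold change of -0.11 (SE 0.064). The groups overlapped for both transporters, and neither passed. Without WT replicate 3, the lowest WT library for both, NIPA1 passed with a log2 fold change of -0.25, and NIPA2 had -0.16 and did not pass. Without WT replicate 2, the highest WT library for both, NIPA1 had -0.06 and NIPA2 -0.05. With all 6 libraries UBE3A, NIPA1 and NIPA2 ran from -0.19 to -0.11, against -2.40 for SNRPN.

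Between the members of the region lies ATP10A, a phospholipid flippase gene that is imprinted in some human tissues. It had 1.01, 0.927 and 0 normalized counts in KO libraries, against 425, 433 and 407 in WT libraries. ATP10A was nearly absent from KO, and its log2 fold change of -8.07 (SE 0.282; limma adjusted p = 6.86e-11) depends on the pseudocount, with -8.68 at 0.5 and -6.24 at 5. By gene order in the dog reference UU_Cfam_GSD_1.0, UBE3A and 1 unnamed gene are the 2 protein-coding genes between ATP10A and SNRPN. Non-coding genes were not placed. UBE3A, with KO at 88.0% of WT, therefore lies between the gene at 0.153% and the gene at 18.9%.

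The other tested genes of the region had smaller differences. Genes were matched by symbol, so a gene given as not tested may still be present without one. From TUBGCP5 to TJP1 the order holds 31 protein-coding genes, of which 10 could be tested: 5 passed as lower, 0 as higher and 5 did not pass. These 10 include SNRPN, UBE3A, NIPA1 and NIPA2, which were chosen with results known. Of the other 6, 3 fell, 0 rose and 3 did not pass, 50% passing against 48.1% of all tested genes. Their median was -0.17 on the log2 scale, and that of all tested genes -0.01. Of the 10, the 8 besides SNRPN and ATP10A ran from -0.29 to 0.11. CYFIP1, a regulator of actin assembly, fell to 5726 ± 65.5 in KO, against 6402 ± 134 in WT (log2 fold change -0.16, limma adjusted p = 0.00432). TJP1, which encodes the tight junction scaffold ZO-1, fell to 5410 ± 254 in KO, against 6094 ± 60.4 in WT (-0.17, limma adjusted p = 0.00544). TUBGCP5, of the gamma-tubulin complex, had a log2 fold change of 0.09 (limma adjusted p = 0.444). The transcription factor gene KLF13 had -0.29 (limma adjusted p = 0.0706) and passed without KO replicate 3 (-0.39, limma adjusted p = 0.0266). MTMR10, a myotubularin-related gene, had 0.11 (limma adjusted p = 0.0956) and passed with upper-quartile rescaling (0.15, limma adjusted p = 0.0320).

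**Figure D2:**
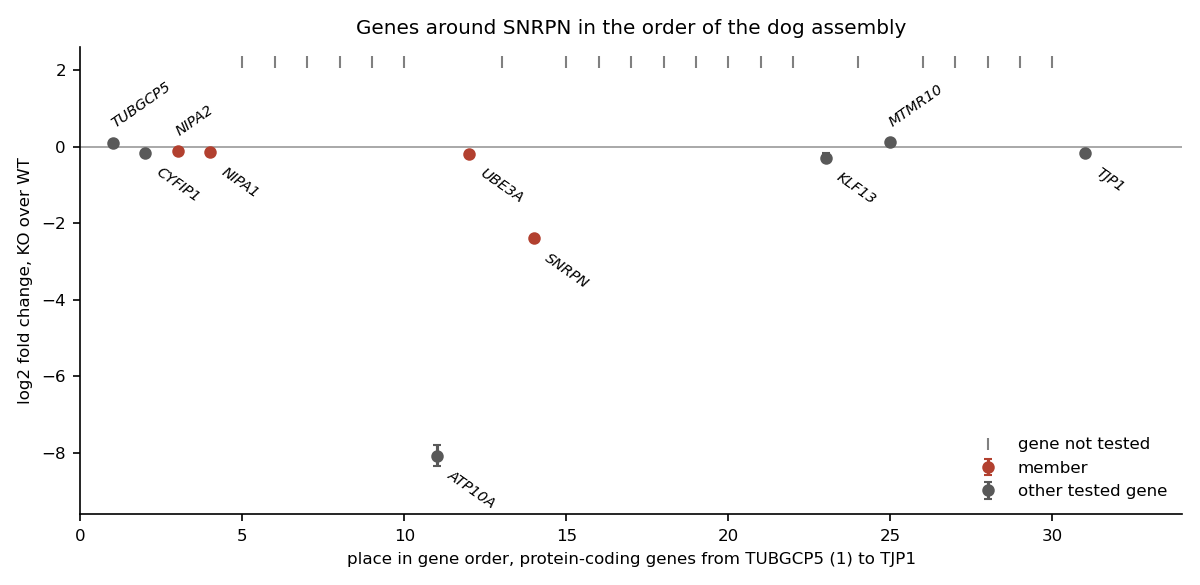
Log2 fold change, KO over WT, of the 10 tested genes among 31 protein-coding genes from TUBGCP5 to TJP1, by place in the reference gene order (bars: SE; ticks at the top: genes not tested). ATP10A (-8.07) and SNRPN (-2.40) stand apart, while UBE3A between them is at -0.19.

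SmN is a close relative of SmB, encoded by SNRPB, which fills the same place in the Sm ring of other cells. SNRPB had 3572, 3685 and 3775 normalized counts in KO libraries, against 2147, 2014 and 2227 in WT libraries. All KO libraries lay above all WT libraries, the opposite of SNRPN (log2 fold change 0.79, SE 0.050, limma adjusted p = 2.44e-08). The coding sequences are alike, so reads could be shared between them, and SNURF, which is made from the same transcript as SNRPN, is not analysed here. The sum of both genes was 6483, 6782 and 6949 in KO and 18663, 17646 and 18579 in WT, so the KO sum was 36.8% of the WT sum. SNRPN had 13106 fewer normalized counts in KO and SNRPB 1548 more, a ratio of 8.47. The ratio of SNRPN to SNRPB counts was 0.815, 0.840 and 0.841 in KO libraries and 7.69, 7.76 and 7.34 in WT libraries. These ratios are not per length, so only their difference between groups can be read.

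SNRPB lies in the run of genes from SMOX to UBE2V1, where 156 of 159 tested genes were higher in KO with a median log2 fold change of 0.97. Across all tested genes 23.6% were higher. The run was picked out with results of this comparison known, so its count is only a description. Whether the SNRPB change belongs to that run was not tested.

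The other snRNP genes and the genes of snRNP assembly had smaller differences. The list of Sm core, U1 and SMN assembly genes had 18 tested genes, SNRPB included: 3 rose, 4 fell and 11 did not pass, 38.9% passing against 48.1% of all tested genes, with a median of -0.07. GEMIN4, of the SMN complex that loads Sm proteins onto snRNA, rose to 1273 ± 13.9 in KO, against 916 ± 2.84 in WT (log2 fold change 0.47, limma adjusted p = 5.23e-06). STRAP, also of that complex, fell to 2792 ± 101 in KO, against 3636 ± 154 in WT (-0.38, limma adjusted p = 2.40e-05). SNRPA, a U1 snRNP protein gene, fell to 1417 ± 31.6 in KO, against 1737 ± 61.1 in WT (-0.29, limma adjusted p = 0.000347). The Sm ring genes SNRPD3, SNRPE and SNRPG had log2 fold changes of -0.09, -0.09 and -0.05 and did not pass, and SNRPD1 fell by 0.27.

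**Figure D3:**
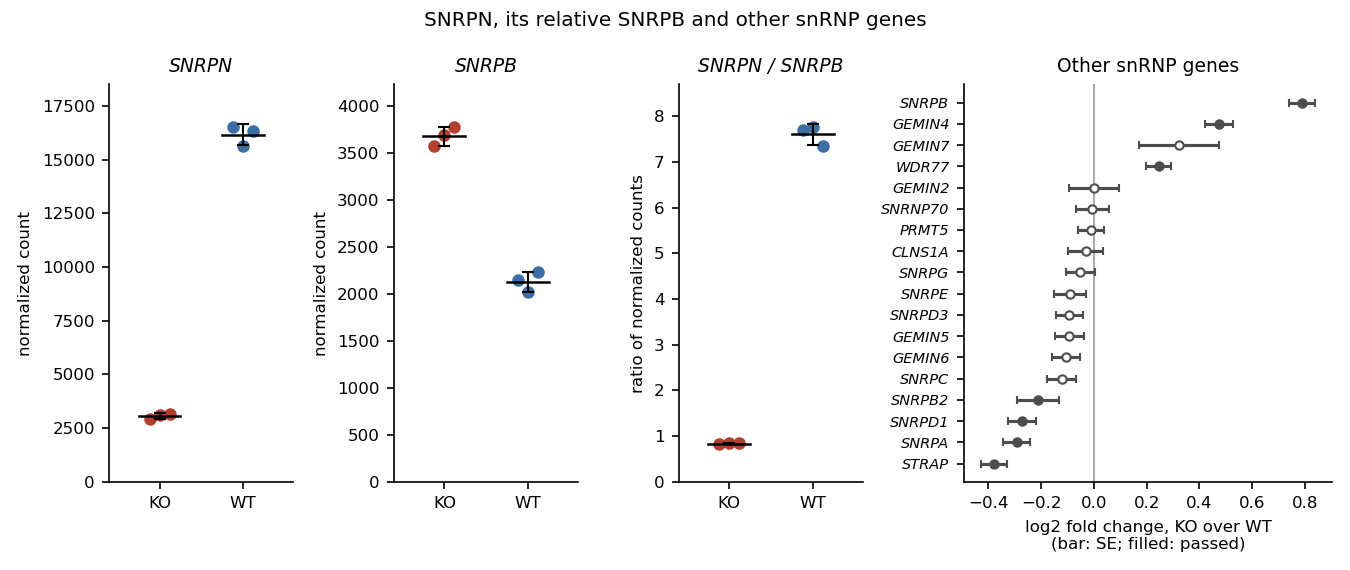
Normalized counts of SNRPN and SNRPB and their ratio in each library (points), with the mean and SD of 3 libraries per group (lines and bars). Beside them are log2 fold changes of the 18 tested Sm core, U1 and SMN assembly genes, SNRPB included (bars: SE, filled: passed). SNRPN is lower in KO, SNRPB is higher, and the ratio is at most 0.841 in KO and at least 7.34 in WT.

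Among the imprinted genes outside the SNRPN region, PEG10 and MEST differed in opposite directions. PEG10 (ENSCAFG00845019307), a gene derived from a retrotransposon and read from the paternal copy in human and mouse, was listed at 0 in every KO library, against 6.83, 12.4 and 15.5 in the WT libraries. Its mean over the 6 libraries, 5.78, lay under the filter, so no fold is given. MEST (ENSCAFG00845017043), which encodes a hydrolase-like membrane protein and is also paternally read in both species, had 65.8, 76.8 and 63.4 in KO libraries, against 14.4, 25.9 and 12.5 in WT libraries. All KO libraries lay above all WT libraries, and the WT libraries were the more scattered, with a coefficient of variation of 41.2% against 10.4% in KO. The means were 68.7 ± 7.15 in KO and 17.6 ± 7.24 in WT (log2 fold change 1.97, SE 0.257, and 2.27 without WT replicate 2). MEST passed in all 14 settings in which it was fitted.

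IGF2R (ENSCAFG00845002089), the receptor that carries mannose 6-phosphate enzymes to lysosomes and takes IGF2 up for breakdown, is maternally read in mouse. It had 3254, 2868 and 3810 normalized counts in the KO libraries, against 3008, 3130 and 3088 in the WT libraries. The KO libraries spread widely, with values on both sides of the WT libraries, and their coefficient of variation was 14.3% against 2.02% in WT. The log2 fold change was 0.10 (SE 0.085). Without KO replicate 2 it was 0.20 and passed, and without KO replicate 3 it was -0.01.

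Of the tested genes up to 10 places from these members, some rose, some fell and some did not pass. PEG10 is flanked by SGCE, the sarcoglycan epsilon gene that shares its imprint in human and mouse, which was listed at 0 in all 6 libraries. On the other side PPP1R9A, the neurabin gene, fell to 289 ± 18.2 in KO, against 541 ± 69.3 in WT (log2 fold change -0.90, limma adjusted p = 4.28e-06). CASD1, a sialic acid acetyltransferase gene, had 108 ± 20.2 in KO and 143 ± 25.5 in WT (-0.40, limma adjusted p = 0.0603), and passed with a replicate block, without KO replicate 2 and without WT replicate 3 (-0.40, -0.50 and -0.53). In a window of 10 genes on each side of PEG10, 9 were tested, of which 2 rose, 3 fell and 4 did not pass. Among all tested genes 48.1% passed. PON2, a paraoxonase gene 4 places away, fell to 2424 ± 137 in KO, against 4716 ± 308 in WT (limma adjusted p = 1.27e-08). TFPI2, a protease inhibitor gene of the same window, was listed at 0 in every KO library and at 7.97, 5.33 and 8.59 in WT.

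MEST lies between COPG2, a coatomer gene, and CEP41, a centrosome gene. COPG2 had 1333 ± 81.1 in KO and 1367 ± 68.1 in WT (log2 fold change -0.04, limma adjusted p = 0.647). CEP41 had 1158 ± 27.3 in KO and 1048 ± 118 in WT (0.15, limma adjusted p = 0.111) and passed without WT replicate 2 (0.24, limma adjusted p = 0.00404). Neither neighbour passed with all 6 libraries, and both log2 fold changes were small beside the 1.97 of MEST. Of the 12 tested genes in the window 3 rose, 4 fell and 5 did not pass. The semaphorin receptor gene PLXNA4 rose to 153 ± 7.38 in KO, against 43.9 ± 3.11 in WT (limma adjusted p = 1.53e-07). Around IGF2R, 8 genes were tested, of which 3 rose, 2 fell and 3 did not pass. Beside PEG3, which is not analysed here, the single tested gene, the zinc finger gene ZNF304, fell to 3.77 ± 1.56 in KO, against 87.7 ± 8.68 in WT (-4.27, limma adjusted p = 6.23e-08). Over all windows 35 distinct genes besides the members were tested, and 8 rose, 12 fell and 15 did not pass, 57.1% passing against 48.1% of all tested genes. PON2, TFPI2, PLXNA4 and ZNF304 were chosen after their values were seen.

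**Figure D4:**
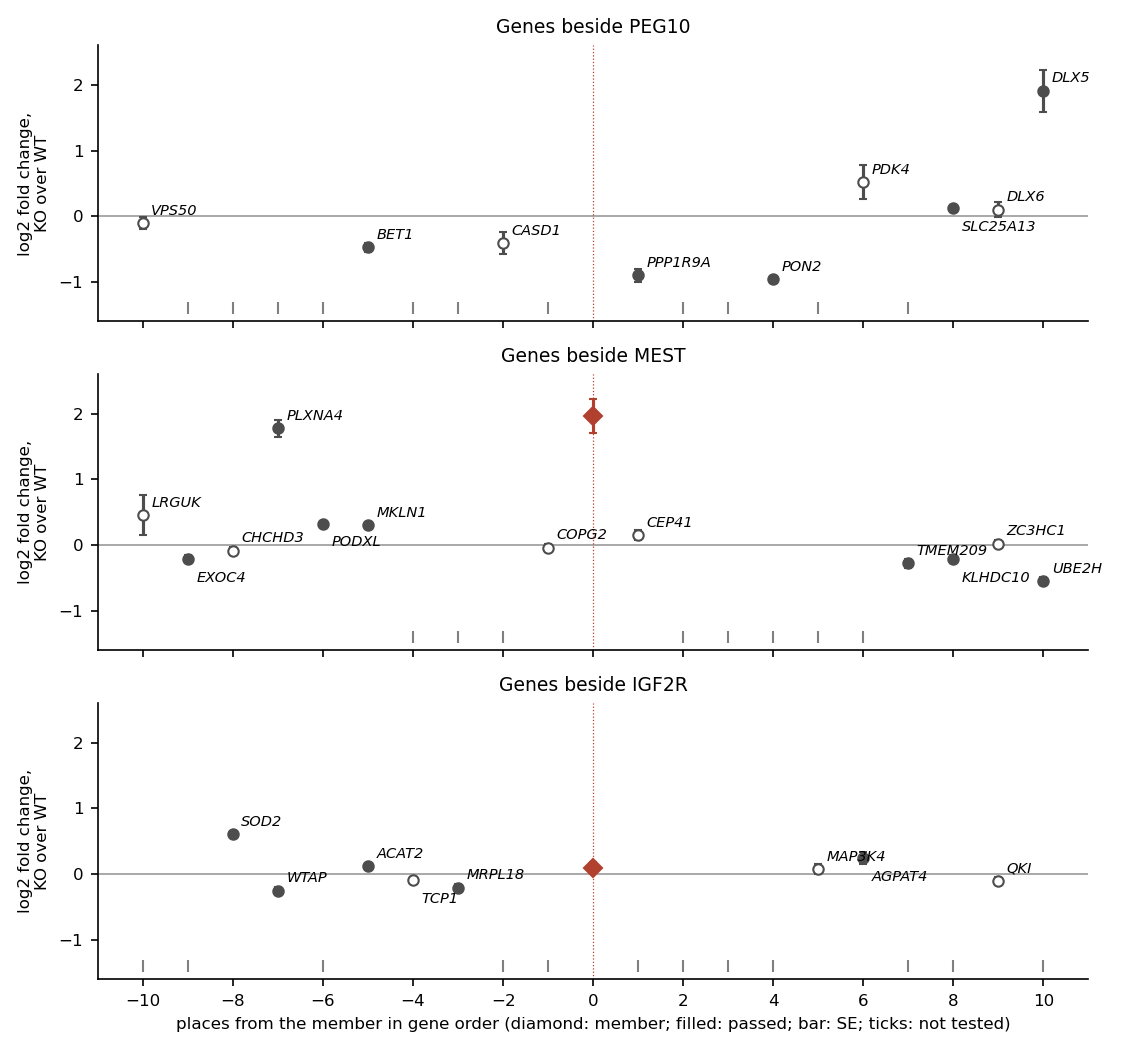
Log2 fold change, KO over WT, of tested genes up to 10 places from PEG10, MEST and IGF2R in gene order (diamond: member; filled circle: passed; bars: SE; ticks: not tested). MEST stands at 1.97 between COPG2 (-0.04) and CEP41 (0.15), and PEG10, under the filter, has no point.

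A wider list of imprinted genes, taken from human and mouse, held 57 symbols besides the members, ATP10A, PPP1R9A and COPG2 among them, of which 25 could be tested. Of these, 5 rose, 6 fell and 14 did not pass. The 44.0% passing compares with 48.1% of all tested genes, and the median log2 fold change was -0.08. The paternally read genes had 1 higher and 3 lower of 8 tested, and the maternally read genes 4 higher and 3 lower of 17.

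Of the paternally read genes, SFMBT2, a Polycomb-type gene, fell to 192 ± 33.6 in KO, against 362 ± 29.1 in WT (log2 fold change -0.92, limma adjusted p = 2.78e-05). PLAGL1, a zinc finger growth regulator, fell to 273 ± 24.3 in KO, against 360 ± 30.0 in WT (-0.40, limma adjusted p = 0.00353). IGF2, the growth factor bound by IGF2R, fell to 187 ± 7.61 in KO, against 232 ± 9.43 in WT (-0.32, limma adjusted p = 0.0132). That call was lost without KO replicate 1 (-0.28, limma adjusted p = 0.0515) and without WT replicate 1 (-0.29, limma adjusted p = 0.0515). The methyl-lysine reader gene L3MBTL1 rose to 197 ± 23.9 in KO, against 83.3 ± 12.6 in WT (1.24, limma adjusted p = 8.08e-06).

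Of the maternally read genes, the potassium channel gene KCNQ1 rose to 570 ± 31.4 in KO, against 353 ± 28.2 in WT (log2 fold change 0.69, limma adjusted p = 9.80e-06). BLCAP rose to 1642 ± 132 in KO, against 908 ± 19.8 in WT (0.85, limma adjusted p = 1.17e-07). L3MBTL1 and BLCAP both lie in the run from SMOX to UBE2V1 described above, and without its genes the wider list had 3 higher and 6 lower of 23. The homeobox gene DLX5 and the insulin receptor adaptor gene GRB10 also rose, by 1.91 and 0.68 on the log2 scale. PHLDA2, a placental growth gene, fell by 0.25. GNAS, the stimulatory G protein gene, had 14366 ± 496 in KO and 14538 ± 225 in WT (-0.02, limma adjusted p = 0.732). DLX5, GRB10, PHLDA2 and GNAS were chosen after their values were seen.

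**Figure D5:**
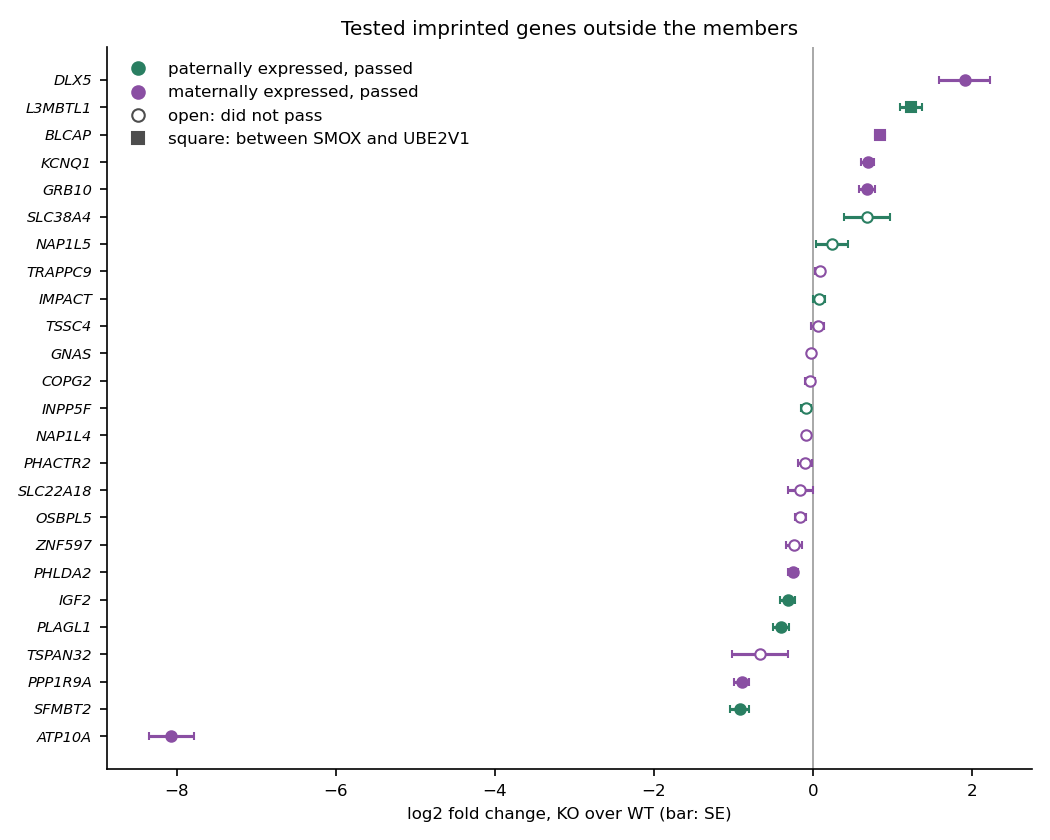
Log2 fold change, KO over WT, of the 25 tested imprinted genes besides the members, ordered by value (bars: SE; filled: passed; green: paternally read; purple: maternally read; squares: genes between SMOX and UBE2V1). Values other than ATP10A (-8.07) lie between -0.92 and 1.91, with 14 genes not passing. The value of 1.91 is that of DLX5, a low gene with a WT mean of 7.09.

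Of 21 tested genes linked to imprints and to the gain, upkeep or removal of DNA methylation, 13 did not pass, 5 rose and 3 fell. The 38.1% passing compares with 48.1% of all tested genes, and the median log2 fold change was -0.03. KDM1B, the histone demethylase needed to set maternal imprints in mouse oocytes, rose to 1142 ± 51.6 in KO, against 759 ± 59.9 in WT (log2 fold change 0.59, limma adjusted p = 8.69e-06). DNMT3B, a de novo DNA methyltransferase gene, rose to 104 ± 10.8 in KO, against 26.5 ± 10.2 in WT (2.01, limma adjusted p = 4.05e-05). It too lies between SMOX and UBE2V1. UHRF1, which brings DNMT1 to newly copied DNA, rose to 3459 ± 121 in KO, against 2802 ± 105 in WT (0.30, limma adjusted p = 0.000148). TET3, which oxidises methylcytosine, fell to 474 ± 49.5 in KO, against 650 ± 22.9 in WT (-0.46, limma adjusted p = 0.000357). The maintenance enzyme gene DNMT1 and the imprint reader ZNF445 had log2 fold changes of -0.20 (limma adjusted p = 0.00327) and -0.04 (limma adjusted p = 0.594), and both were chosen after their values were seen.

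Partners of UBE3A and HERC2 in ubiquitin transfer had 1 higher, 5 lower and 7 not passing of 13 tested (median -0.03, 46.2% passing against 48.1% of all tested genes). The ubiquitin-conjugating enzyme gene UBE2D1 fell to 367 ± 14.6 in KO, against 623 ± 43.8 in WT (log2 fold change -0.76, limma adjusted p = 2.04e-06). The kinase gene MAPK6 fell by 0.28 on the log2 scale, and the deubiquitinase gene USP33 rose by 0.25. NDN belongs to the MAGE family, of which only 3 other genes were tested, 66.7% passing against 48.1% of all tested genes. MAGED2 and MAGEF1 fell by 0.24 and 0.34, and MAGED1 had 0.04 (limma adjusted p = 0.672).

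In a list of genes of IGF2 and of mannose 6-phosphate sorting, 7 of 17 tested genes rose, 6 fell and 4 did not pass. The median was 0.13, with 76.5% passing against 48.1% of all tested genes. The list also holds IGF1R, IGFBP4, IGF2BP1, IGF2BP2 and IGF2BP3, which are not part of the sorting route, and each of these passed. The lysosomal enzyme genes GAA and HEXA rose to 793 ± 30.7 and 1754 ± 28.1 in KO, against 452 ± 14.5 and 1211 ± 26.2 in WT (limma adjusted p = 2.85e-07 and 1.05e-06). IGFBP4, a binding protein for insulin-like growth factors, rose to 1788 ± 98.3 in KO, against 974 ± 90.1 in WT (log2 fold change 0.88, limma adjusted p = 2.83e-07). IGF2BP3, an IGF2 mRNA-binding protein gene, fell to 353 ± 9.55 in KO, against 575 ± 25.5 in WT (-0.70, limma adjusted p = 2.59e-06). The receptor gene itself, by contrast, had libraries of the 2 groups that overlapped.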

How the data were processed

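The submitters' processing notes name STAR 2.5.2b, featureCounts, DESeq2 1.14.1, Picard 2.8.1 and FastQC; the genome build is not given in the sources used here. Per the labels' protocols, 250 ng of total RNA went into stranded poly-A libraries read as paired 75-base reads. The authors deposited a signal, normalized counts for 6 libraries. A common step of 0.864 to 1.14 per library put only 72.2 to 81.0% of values under 12 within 0.1 of a whole multiple, so whole reads were not recovered. At about 1 read per step, depth was about 16884423 to 22438421 reads. Per the file headers, the authors' mean, log2 fold change, its error, a score and p-values were also deposited.

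Testing was limited to genes averaging 10 or more and used limma 3.58.1 (trend and robust options, statmod 1.5.0, R 4.3.3) on log2(value + 1), two-sided, with Benjamini-Hochberg adjustment. This scale understates changes of low genes. Simulated data served to check the fit. Members and lists were chosen with earlier results of these data known. Repeated symbols were represented by their most abundant row. Named were the members, CDH1, tested genes of the SNRPN region and those within 2 places of SNRPN, NDN, PEG3, PEG10, MEST and IGF2R, up to 4 called genes per list by adjusted p, and the 5 genes nearest to SNRPN. 1 gene that this rule names is not reported here. The 13 lists comprise 8 of pathways and imprinting and 5 of markers, the marker genes CDH16, CDH6, CLDN2 and CLDN4 included (log2 fold changes 1.97, -0.62, -1.89 and -0.71). Gene order, counted over protein-coding genes only, came from UU_Cfam_GSD_1.0, where 97.7% of 10003 tested symbols had a place. The 12349 tested genes include some without a symbol, which could not enter the lists, the region or the windows. Python 3.11.15, numpy 2.4.6, pandas 2.3.3 and matplotlib 3.10.9 were used. Alternatives were rescaling, pseudocounts of 0.5 and 5, no filter or a minimum mean of 50, limma without trend and robust options, a replicate block, each library left out and the authors' values.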

Additional observations from a re-analysis of the deposited data

Results flagged for a closer look

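The authors' deposited mean, a column that no comparison above uses, was higher than each of the 6 libraries for some imprinted genes. This was so for PEG10, with a deposited mean of 21.9 against at most 15.5 in any library, and for its neighbour SGCE, with 33.9 although every library lists 0. TFPI2, of the same window, had 40.1 against at most 8.59. The other genes were IGF2 (272.8 against at most 240.0), PLAGL1 (378.7 against 377.9), SFMBT2 (415.6 against 379.0), TSPAN32 (23.9 against 20.5) and GNAS (20910 against 14732). Of all 12851 genes in the table, 2261, or 17.6%, had such a deposited mean. The mean of the 6 libraries was at most 1.5 times the deposited mean for any gene. Further libraries are not analysed here.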

How the results depend on the processing

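SNRPN kept its direction and size under every alternative run, with log2 fold changes of -2.43 to -2.37 when libraries were left out in turn, and MEST likewise (1.77 to 2.27), with no fit at a minimum mean of 50. The ranges for UBE3A, NIPA1, NIPA2 and IGF2R were -0.24 to -0.13, -0.25 to -0.06, -0.16 to -0.05 and -0.01 to 0.20. Over all genes 2500 to 2905 were higher and 2567 to 3011 lower with a library left out, against 2920 and 3021. With upper-quartile rescaling 1 gene of the SNRPN region list was higher (MTMR10), and 3 ubiquitin partners were lower in limma with trend and robust options off. Genes beside the members had 5 higher in limma without trend and robust options and 5 to 8 with a library left out, the low end without KO replicate 2 or WT replicate 1. Without the genes between SMOX and UBE2V1, an alternative chosen after seeing the data, 3 imprinted genes were higher. Fewer genes enter that count; the cause of the other shifts was not tested. Of 46 named genes besides the members, 41 kept their call under every limma alternative in which they were fitted. Of the members, SNRPN, NIPA2 and MEST kept theirs in these fits, and UBE3A, NIPA1 and IGF2R did not. Replicate numbers are shared between groups, but same-numbered libraries did not deviate together (r = 0.054, -0.026 and -0.040), so they do not pair them. With a replicate block 3000 genes were higher and 3118 lower. Members near a mean of 10, such as PEG10, are limited by depth.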
